A study of Homo sapiens with 3 samples.

Results

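Growth factor receptor tyrosine kinases are described here across cultures that overexpressed the transcription factor ZEB1. The 10 receptors, taken by gene name from a table of 58735 genes, were EGFR, ERBB2, ERBB3, MET, AXL, PDGFRA, PDGFRB, FGFR1, IGF1R and KIT. The table held 3 RNA sequencing libraries, with 1 library in each group, and its values are FPKM, reads scaled by gene length and library size. HCT116, a line of human colorectal carcinoma cells, was the label of every culture, each of which was grown in DMEM with fetal bovine serum and carried the treatment label control. The control cells carried an empty vector, and the other groups were cells overexpressing wild-type ZEB1, and cells overexpressing ZEB1 K80R, in which arginine replaces a lysine. The labels do not say whether each line was a clone or a pool.

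Replicates were absent, which leaves no spread between cultures to compare with, and no p-value is given. Ratios are of FPKM between a pair of libraries, and the values in brackets are exact 95% intervals that cover counting error only. They rest on the whole reads recovered from the FPKM, which summed to between 13479517 and 14764535 per library. ZEB1 itself, the overexpressed gene, stood at 5.66 FPKM with empty vector, 9.83 with wild-type ZEB1 and 10.3 with ZEB1 K80R. Mitochondrial genes took 1.29% of the reads of the empty vector library, 7.77% with wild-type ZEB1 and 9.75% with K80R. The empty vector library also held only 350 genes with a single read, against 2705 and 2902. The labelled cell type was checked against 19 genes of colon epithelium. None of them had a mean FPKM of 1 and 10 had 0 reads in every library, EPCAM, CDH1 and CDX2 among them, so most markers that define colon epithelium were at or near 0 in libraries labelled as a colorectal line. CLDN4 had the highest level, up to 0.897 FPKM from 67 reads. The summed level of the 19 was 1.28, 1.18 and 1.26 FPKM in the empty vector, wild-type and K80R libraries, the order in which 3 values are given throughout. Of 15 housekeeping genes, all 15 had reads in every library. With wild-type ZEB1 5 were at least 1.5-fold higher and 2 lower than with empty vector, and with K80R 1 and 2. Of all 12605 genes whose mean FPKM reached 1, 14.2% were higher and 11.1% lower with wild-type ZEB1, and 12.6% and 13% with K80R. Rescaled to a common sum (TPM), none of the 15 was higher, and 5 were lower with wild-type ZEB1 and 4 with K80R, beside 37.7% and 35.9% of all genes.

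Receptor tyrosine kinases are membrane proteins that bind a growth factor outside the cell, pair up, and phosphorylate each other on tyrosines. Adaptors such as GRB2 and SHC1 dock on these tyrosines and pass the signal to RAS and ERK and to PI3 kinase, while ubiquitin ligases such as CBL and inhibitors such as ERRFI1 shut the receptor off. EGFR and its relatives drive growth of colon epithelium, MET answers hepatocyte growth factor, and AXL and the PDGF receptors are best known from mesenchymal cells and from carcinoma cells in epithelial-mesenchymal transition (EMT), the programme that ZEB1 promotes.

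The receptors spanned a wide range of levels, from AXL at well over 100 FPKM to PDGFRA, which had no read. AXL (chr19:41219203-41261766 in GRCh38), the receptor for GAS6, stood at 173, 146 and 151 FPKM, which ranked it first of 58 receptor tyrosine kinases in the empty vector library and second in the others, behind the ephrin receptor gene EPHA2 at 192 and 165 FPKM. It made up 73.2%, 66.9% and 62.5% of the summed FPKM of the 10 receptors. MET (chr7:116672390-116798386), the receptor for hepatocyte growth factor, was next at 37.2, 36.6 and 51.3 FPKM, at rank 3 of the 58 in every library. EGFR (chr7:55019021-55211628), the receptor for EGF, TGFA and HBEGF, followed at 9.48, 14.9 and 17.1 FPKM. These 3 genes came in the same order in every library, and each step of that order exceeded counting error.

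FGFR1, a receptor for fibroblast growth factors, ERBB2, the ligand-less partner of other EGFR family members, and IGF1R, the receptor for insulin-like growth factors, lay close together. FGFR1 was at 4.83, 7.65 and 7.78 FPKM. ERBB2 (chr17:39687914-39730426) was at 6.48, 5.82 and 6.28 FPKM. IGF1R (chr15:98648539-98964530) was at 4.53, 5.08 and 6.61 FPKM. ERBB2 was the highest of these 3 in the empty vector library and FGFR1 in the other libraries. FGFR1 and IGF1R could not be told apart by counting error in the empty vector library, nor IGF1R and ERBB2 in the K80R library. PDGFRB (chr5:150113837-150155872), the PDGF receptor of pericytes and fibroblasts, stood at 0.573, 2.19 and 1.54 FPKM from 65, 216 and 146 reads.

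The other 3 receptors were at or near the limit of detection. ERBB3, an EGFR family member that binds neuregulins and has little kinase activity of its own, had 19, 8 and 5 reads, or 0.132, 0.0642 and 0.0415 FPKM. KIT, the receptor for stem cell factor on mast cells, melanocytes and interstitial cells of the gut, had 0, 0 and 3 reads. PDGFRA, the PDGF receptor of stromal fibroblasts, had 0 reads in all 3 libraries. A count of 0 allows up to 3 reads, which for PDGFRA is a level of 0.0194, 0.0223 and 0.0231 FPKM, and for KIT 0.0339 and 0.0391 FPKM in the empty vector and wild-type libraries. KIT at 3 reads thus did not differ detectably between libraries at this depth.

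**Figure D1:**
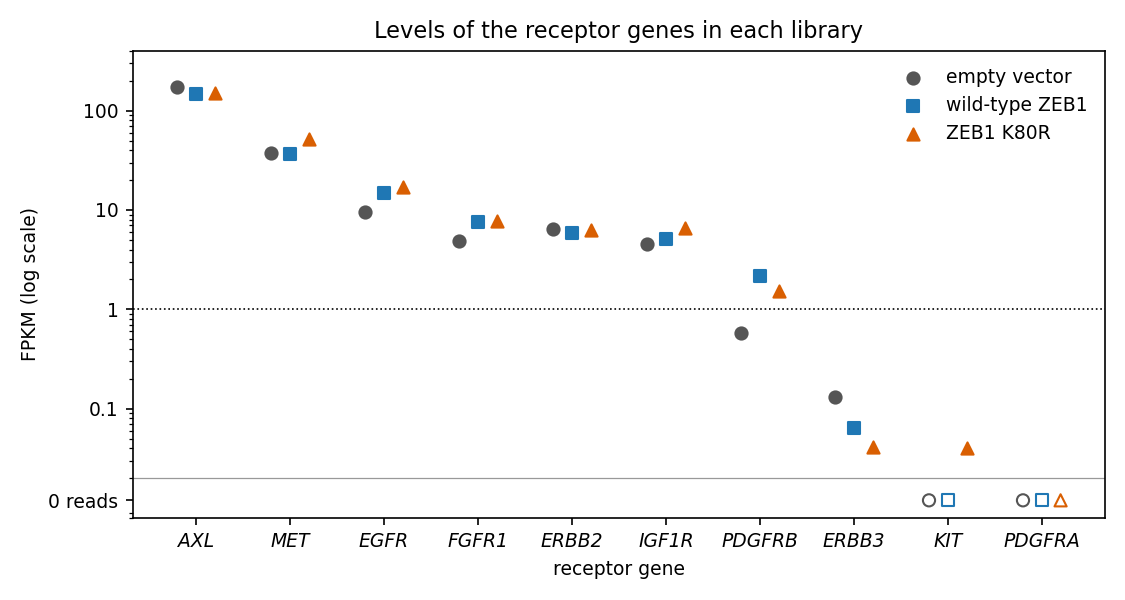
FPKM (log scale) of the 10 receptor genes in the libraries of empty vector (EV), wild-type ZEB1 and K80R, 1 point per library, with open symbols below the grey line for genes with 0 reads and a dotted line at an FPKM of 1. AXL was highest at 146 to 173, 7 receptors had a mean above the dotted line, and PDGFRA had no read.

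The promoters of 4 starts are printed for AXL, the receptor with the highest level, and for EGFR and PDGFRB, the receptors past 1.5-fold in both overexpression libraries. The RefSeq table (GRCh38.p14) gave 11 windows of 300 bases, from 250 before to 50 after a start, for 8 of the 10 receptors. Entries for ERBB3 and FGFR1 were not in the table. Both strands were searched for CACCTG, the E-box that ZEB1 binds, for TGANTCA, the AP-1 site, for GGGCGG, the GC box of SP1, and for the κB consensus of NF-κB. Capitals mark the matches.
AXL, chr19:41218973-41219272, plus strand: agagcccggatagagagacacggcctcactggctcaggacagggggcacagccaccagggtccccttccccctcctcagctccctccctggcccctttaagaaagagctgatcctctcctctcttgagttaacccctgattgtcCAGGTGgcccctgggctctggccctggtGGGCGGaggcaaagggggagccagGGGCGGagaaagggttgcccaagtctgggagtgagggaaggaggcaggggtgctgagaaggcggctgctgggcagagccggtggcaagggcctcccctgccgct
EGFR, first start, chr7:55018767-55019066, plus strand: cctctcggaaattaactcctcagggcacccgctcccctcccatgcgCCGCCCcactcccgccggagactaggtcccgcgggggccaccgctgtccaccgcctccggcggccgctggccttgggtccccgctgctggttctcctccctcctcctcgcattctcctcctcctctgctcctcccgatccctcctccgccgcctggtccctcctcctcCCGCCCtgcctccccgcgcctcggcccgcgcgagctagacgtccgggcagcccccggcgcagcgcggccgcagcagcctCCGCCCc
EGFR, second start, chr7:55109589-55109888, plus strand: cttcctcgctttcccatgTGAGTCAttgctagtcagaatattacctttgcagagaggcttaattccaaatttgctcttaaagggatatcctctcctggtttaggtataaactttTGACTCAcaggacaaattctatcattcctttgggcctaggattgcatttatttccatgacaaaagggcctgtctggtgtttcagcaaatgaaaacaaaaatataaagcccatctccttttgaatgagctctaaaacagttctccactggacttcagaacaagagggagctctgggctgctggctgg
PDGFRB, chr5:150155796-150156095, minus strand: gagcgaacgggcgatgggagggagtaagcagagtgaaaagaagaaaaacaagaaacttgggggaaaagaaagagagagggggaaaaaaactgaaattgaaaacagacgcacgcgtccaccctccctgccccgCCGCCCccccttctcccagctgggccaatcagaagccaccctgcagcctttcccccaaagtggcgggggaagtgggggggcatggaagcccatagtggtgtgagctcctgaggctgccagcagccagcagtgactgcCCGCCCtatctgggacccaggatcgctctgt

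The ZEB1 E-box occurred in 1 of the 11 receptor windows, that of the first AXL start, as CAGGTG with its first base 106 bases before the start. It was also in 20.6% of all 35116 windows of that kind. The AP-1 site was found in 3 of the 11, a start of PDGFRA, the only ERBB2 window and the second EGFR start, which lies inside the gene and held 2 sites, against 7.71% of all windows. The GC box was in 7 of the 11, against 45% of all windows, and PDGFRB and EGFR held it 2 and 3 times. None of the 11 held the κB consensus, which was in 5.91% of all windows. A match describes letters in a window and not a bound site.

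With wild-type ZEB1, EGFR and PDGFRB were at least 1.5-fold higher than with empty vector, FGFR1 was just short of that limit, and AXL and ERBB2 were slightly lower. The limit was set on the ratio of FPKM + 1, a pseudocount that draws low genes together, and applied where the mean FPKM reached 1. Of the 7 receptors above that mean, 2 were higher by this measure and none was lower, with a median difference of log2(FPKM + 1) of 0.14. Over all 12605 such genes 14.2% were higher and 11.1% lower, with a median of 0.01, and over protein-coding genes these were 12% and 7.63%. PDGFRB reached that mean only through the overexpression libraries, so its place among the higher genes follows in part from the filter.

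EGFR stood at 14.9 FPKM from 2579 reads with wild-type ZEB1 and at 9.48 from 1885 reads with empty vector, a ratio of 1.58 (1.48 to 1.67). PDGFRB had a ratio of 3.83 (2.89 to 5.13), the largest of the 7. FGFR1 had a ratio of 1.58 (1.46 to 1.72), equal to that of EGFR, and 1.48 as FPKM + 1 against 1.52 for EGFR, so the limit separated genes of like difference. MET was level, at a ratio of 0.986 (0.942 to 1.03). IGF1R had a ratio of 1.12 (1.03 to 1.23), ERBB2 of 0.897 (0.818 to 0.983) and AXL of 0.841 (0.82 to 0.863). Counting intervals lay above 1 for 4 of the 7 receptors and below 1 for 2, where over all 12605 genes 35.2% lay above and 33.6% below, and over protein-coding genes 37.9% and 34.7%, so an interval clear of 1 was common in these libraries.

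In the ZEB1 K80R library 3 of the 7 receptors, EGFR, FGFR1 and PDGFRB, were at least 1.5-fold higher than with empty vector. The median difference of the 7 was 0.46, against 0.0 over all genes, of which 12.6% were higher and 13% lower by at least 1.5-fold. Among protein-coding genes these were 9.68% and 10.3%. None of the 7 was lower by that measure.

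EGFR stood at 17.1 against 9.48 FPKM, a ratio of 1.8 (1.7 to 1.91). PDGFRB had 1.54 FPKM where empty vector had 0.573, a ratio of 2.68 (1.99 to 3.65). For FGFR1 the levels were 7.78 and 4.83 FPKM, a ratio of 1.61 (1.49 to 1.75), which narrowly passed the limit at 1.51 as FPKM + 1. Short of the limit, MET had a ratio of 1.38 (1.32 to 1.44) and IGF1R of 1.46 (1.34 to 1.59). ERBB2 was level at 0.968 (0.884 to 1.06), and AXL stood at 0.874 (0.852 to 0.896). ERBB3, too low for the count, had 5 reads against 19, a ratio of 0.314 (0.0916 to 0.869). Intervals lay above 1 for 5 of the 7 and below 1 for AXL alone, beside 34.7% and 33.8% of all genes and 36.5% and 35.7% of protein-coding genes. Both comparisons share the empty vector library, so the 2 sets of ratios are not independent of each other.

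Between the overexpression libraries no receptor differed by 1.5-fold. Of all genes 4.42% were higher and 5.18% lower in the K80R library by that measure, and of protein-coding genes 1.33% and 3.87%. MET had the largest difference of log2(FPKM + 1), at 0.47, with 4806 reads and 51.3 FPKM in the K80R library against 3559 reads and 36.6 FPKM, a ratio of 1.40 (1.34 to 1.46). IGF1R had a ratio of 1.30 (1.2 to 1.42) and EGFR of 1.14 (1.08 to 1.21). PDGFRB was the receptor with a lower level in K80R, at a ratio of 0.70 (0.563 to 0.868), which lies further from 1 than that of MET but is −0.33 as log2(FPKM + 1). FGFR1 and ERBB2 had ratios of 1.02 (0.945 to 1.09) and 1.08 (0.98 to 1.19), and AXL of 1.04 (1.01 to 1.07). Intervals lay above 1 for 4 of the 7 receptors here, beside 24.2% of all genes and 26% of protein-coding genes. Below 1 lay 29.5% of all genes, 33.2% of protein-coding genes and, of the receptors, PDGFRB.

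**Figure D2:**
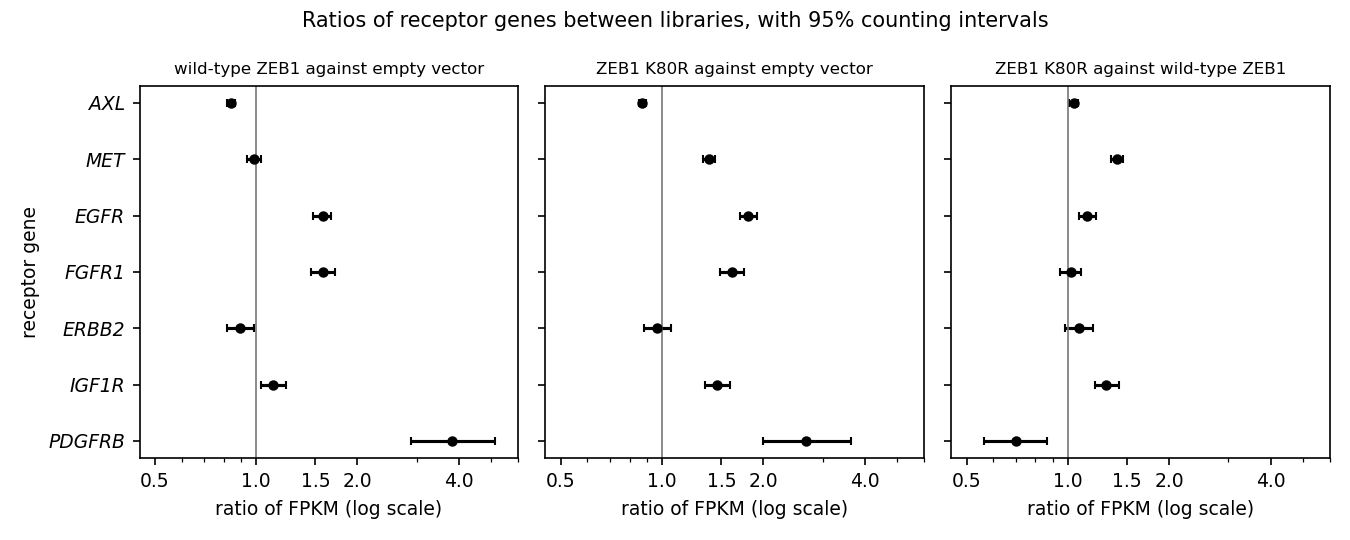
Ratio of FPKM (log scale) of the 7 receptors whose mean FPKM reached 1 in the 3 comparisons, with bars for the exact 95% counting interval and a line at 1. EGFR, FGFR1 and PDGFRB lie to the right in both comparisons with empty vector, and MET and IGF1R lie to the right where the K80R library is compared.

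The summed FPKM of the 10 receptors was nearly even, at 236, 218 and 242. Without AXL the sum was 63.2, 72.3 and 90.7 FPKM. The share of MET in the sum of all 10 was 15.7%, 16.8% and 21.2%, and that of EGFR 4.01%, 6.83% and 7.08%, beside the falling share of AXL given above. EGFR ranked eighth, seventh and sixth of the 58 receptor kinases, and PDGFRB 24th, 19th and 21st.

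How the libraries were scaled moved the comparisons with empty vector more than counting error did. Rescaled to a common sum (TPM), the median of the 12605 genes shifted to −0.42 for wild-type ZEB1 and −0.41 for K80R on the log2 scale. Of the 7 receptors 1 was then higher and 2 were lower past 1.5-fold with wild-type ZEB1, with a median of −0.28, and 1 was higher and 1 lower with K80R, with a median of 0.10. Of the 17153 genes whose mean reached 1 TPM, 11.9% were higher and 37.7% lower with wild-type ZEB1, and 12.6% and 35.9% with K80R. AXL was at 775, 474 and 499 TPM and ERBB2 at 29, 18.9 and 20.7 TPM. On that scale both were lower than with empty vector past 1.5-fold in the wild-type library, and AXL alone in the K80R library. MET was at 166, 119 and 169 TPM and IGF1R at 20.2, 16.5 and 21.8 TPM, so that with wild-type ZEB1 IGF1R turned from slightly higher to lower. EGFR, at 42.3, 48.5 and 56.2 TPM, and FGFR1, at 21.6, 24.9 and 25.6 TPM, kept their direction and lay within 1.5-fold. PDGFRB, at 2.56, 7.13 and 5.06 TPM, was higher than empty vector past 1.5-fold on every scale tried. When genes of the mitochondrial genome were left out of the common sum, EGFR had ratios of 1.49 and 1.90 to empty vector, MET of 0.935 and 1.46, IGF1R of 1.06 and 1.54, and AXL of 0.798 and 0.922. Between the overexpression libraries, MET had a ratio of 1.42 in TPM and of 1.56 without the mitochondrial genes.

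**Figure D3:**
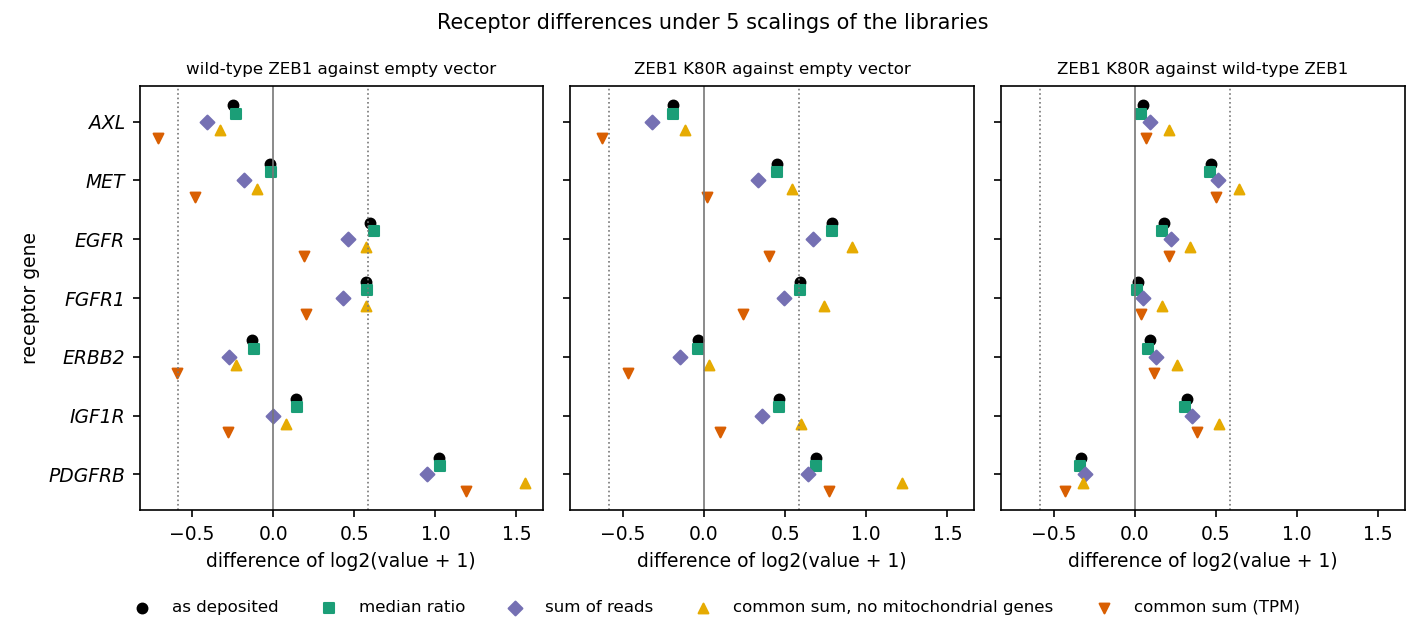
Difference of log2(value + 1) of the 7 receptors under 5 scalings of the libraries, with dotted lines at 1.5-fold. EGFR and FGFR1 stay to the right of 0 in both comparisons with empty vector, AXL stays to the left, and the signs of IGF1R with wild-type ZEB1 and of ERBB2 with K80R depend on the scaling.

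Gene length moved with the difference in the comparisons of the K80R library. For protein-coding genes whose mean FPKM reached 1, the median difference between K80R and wild type was −0.30 below 2000 bases (855 genes), −0.16 from 2000 to 4000, −0.01 from 4000 to 7000, 0.06 from 7000 to 10000 and 0.14 from 10000 bases upwards (1232 genes). Against empty vector the K80R library ran from −0.23 to 0.12 over the same classes, and the wild-type library from 0.03 to −0.02. The receptors are long genes in the table, with EGFR at 12521, FGFR1 at 13842, IGF1R at 13941 and ERBB2 at 10321 bases. In the K80R and wild-type pair EGFR differed by 0.18 and ERBB2 by 0.09, near the median of their class, IGF1R by 0.32, and MET, at 7039 bases, by 0.47. Against empty vector EGFR, at 0.79, FGFR1, at 0.59, and IGF1R, at 0.46, were above the class median of 0.12 in the K80R library. ERBB2, of the same class, was below it at −0.04. The share of coding genes at least 1.5-fold higher than with empty vector was smaller among long genes in both comparisons, from 22.3% below 2000 bases to 4.87% from 10000 upwards in wild type and from 15.6% to 8.77% in K80R. The part of gene length in the receptor differences was not tested.

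**Figure D4:**
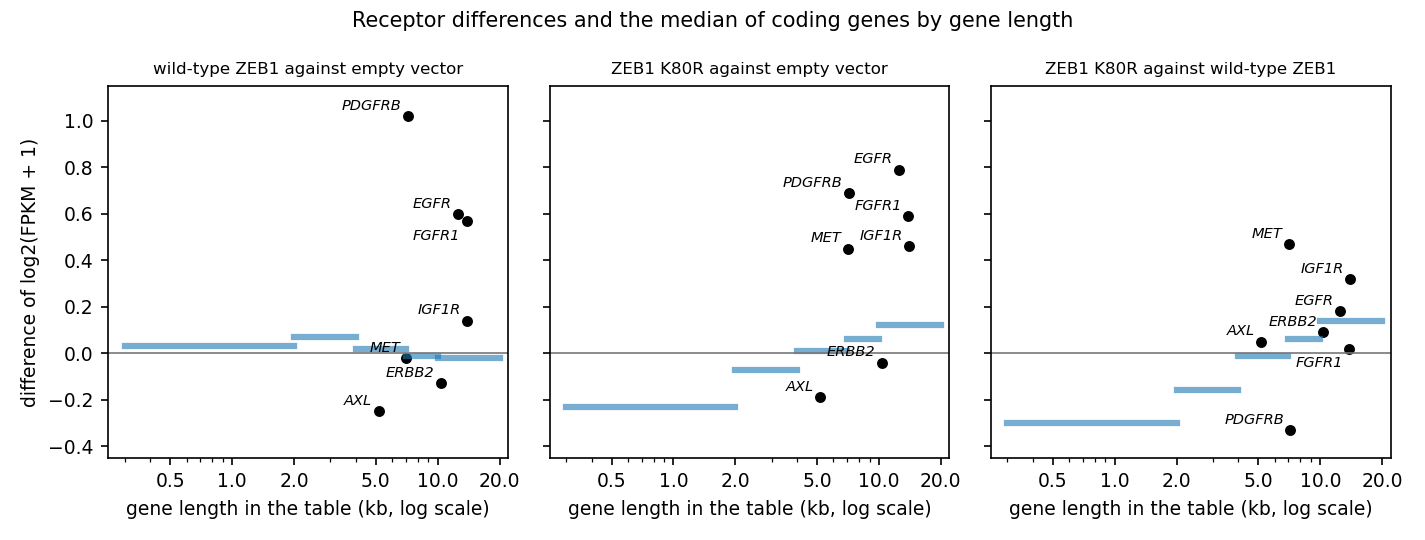
Difference of log2(FPKM + 1) against gene length (kb, log scale) for the 7 receptors (points), with blue bars for the median of protein-coding genes in 5 length classes, the last of them open towards longer genes. In the comparison of K80R with wild type the bars climb from −0.30 to 0.14, with EGFR and ERBB2 near the bar of their class and MET above it.

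Exons of neighbouring genes overlap some receptors, and the strand setting of the counting was not given in the sources used here. EGFR shared 1.49% of its exon bases with EGFR-AS1 on the other strand, which stood at 0, 0.0775 and 0.187 FPKM. FGFR1 shared 1.13% with the opposite-strand gene AC087623.1, at 0, 2.44 and 3.37 FPKM, and AXL 1.3% with AC011510.1, at 0.66, 2.28 and 2.89 FPKM. These 3 opposite-strand genes were higher in both overexpression libraries, as were EGFR and FGFR1, while AXL was lower. The part of shared exons in these differences was not tested. ERBB2 shared 5.53% with MIEN1, at 6.76, 8.35 and 5.8 FPKM, and 1.88% with PGAP3. MET, IGF1R, PDGFRB and KIT shared no exon base with another gene of the table.

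Among 48 other receptor tyrosine kinases, 15 reached a mean FPKM of 1 and 6 had no read. With the pseudocount of 1 none of the 15 passed 1.5-fold in the wild-type library, where their median difference was 0.29. Of all genes 14.2% were higher and 11.1% lower there. With a pseudocount of 0.1, 4 of the 15 were higher in wild type, beside 2275 of all 12605 genes. In TPM 4 of 19 were lower, beside 37.7% of all genes. Without mitochondrial genes in the common sum 5 of 22 were higher and 2 lower, beside 20.5% and 19.7% of all genes. In the K80R library 3 were higher than with empty vector, with a median of 0.37, namely EPHA4 at 2.97 against 1.05 FPKM, ROR1 at 1.71 against 0.487 and EPHB2 at 14.7 against 8.77. ROR1, like PDGFRB, reached the mean of 1 only through the overexpression libraries. EPHA4 and EPHB2 are guidance receptors for ephrins and ROR1 is a Wnt5a receptor. Of all genes 12.6% were higher in K80R. In TPM the medians were −0.11 and −0.09, and K80R had 2 of 19 higher and 3 lower, beside 12.6% and 35.9% of all genes. With a pseudocount of 0.1 K80R had 7 of 15 higher, beside 17.0% of all genes. Without mitochondrial genes it had 8 of 22 higher and 1 lower, beside 26.1% and 15.3% of all genes. LMTK2, a membrane kinase of endosome traffic, was at 3.6, 3.51 and 5.76 FPKM, a log2 difference of 0.58 between K80R and wild type, just short of 1.5-fold.

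Of 36 ligand genes for the 10 receptors, 13 reached a mean FPKM of 1 and 13 had no read. None of these 13 measured ligands passed 1.5-fold in FPKM + 1 in any of the 3 comparisons. Of all 12605 genes 14.2% were higher and 11.1% lower with wild-type ZEB1, and 12.6% and 13% with K80R. In TPM 4 of 14 ligands were lower with wild-type ZEB1 and 2 with K80R, beside 37.7% and 35.9% of all genes. On that scale 1 was higher in K80R than in wild type, beside 11.3% of all genes. With a pseudocount of 0.1, 1 of the 13 was lower in wild type than with empty vector, beside 15.3% of all genes. At that pseudocount 1 was higher in K80R than in wild type, beside 7.63% of all genes. The ligands with the highest levels were HBEGF, at 39.6, 53.0 and 40.4 FPKM, and TGFA, at 21.7, 27.9 and 26.8 FPKM, both of which bind EGFR, and GAS6, which binds AXL, at 38.7, 35.2 and 30.1 FPKM. EGFR and AXL thus had both receptor and ligand transcripts in every library. For MET and IGF1R no read of a listed ligand was counted, with HGF, IGF1 and IGF2 at 0 reads throughout. Shared exons were looked up for the receptors and not for the ligand genes. KIT and its ligand were the reverse case, with KITLG at 2.39, 1.8 and 2.9 FPKM. Of the PDGF genes, PDGFC stood at 12, 12.7 and 13.4 FPKM and PDGFA at 4.09, 6.15 and 4.77, while PDGFB, which encodes a ligand of both PDGF receptors, had 0.0837, 0.328 and 0.18 FPKM. NRG1, whose receptors are ERBB3 and ERBB4, was at 2.82, 3.69 and 3.76 FPKM although ERBB3 was near 0. FGF2, a ligand of FGFR1, was at 2.71, 1.73 and 1.86 FPKM, lower where FGFR1 was higher, and FGF5 at 3.89, 5.16 and 3.93 FPKM.

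Genes for ligand processing, co-receptors and ligand-binding proteins included 17 whose mean FPKM reached 1. With wild-type ZEB1 6 of them were higher than with empty vector and 1 was lower (median 0.38), and with K80R 5 were higher and 1 was lower (median 0.29). The shares over all genes were 14.2% higher and 11.1% lower with wild-type ZEB1 and 12.6% and 13% with K80R. In TPM 3 of 19 were higher and 2 lower with wild-type ZEB1 (median −0.08), and 2 higher and 3 lower with K80R (median −0.15). The TPM shares over all genes were 11.9% higher and 37.7% lower with wild-type ZEB1, and 12.6% and 35.9% with K80R. NRP2, a co-receptor for semaphorins and growth factors, was at 13.2, 29.5 and 23.5 FPKM, and PLAT, the plasminogen activator that cleaves latent PDGF-C, at 40.3, 93.2 and 89.8. CD44, a hyaluronan receptor and co-receptor of MET, stood at 62.9, 149 and 141 FPKM. IGFBP7, an IGF-binding protein, was the lower gene, at 61.0, 40.0 and 35.7 FPKM. RHBDF2, which guides the EGFR ligand sheddase ADAM17 to the cell surface, stood at 9.91, 19.8 and 12.1 FPKM, and SDC4, a heparan sulfate co-receptor of FGF receptors, at 50.7, 91.4 and 46.8 FPKM. RHBDF2 and SDC4 were the 2 of the 17 that were lower in K80R than in wild type past 1.5-fold, and none was higher. Over all genes 5.18% were lower and 4.42% higher. Others, such as NRP2, were lower within the limit.

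Adaptors and proximal effectors had a median below 0 against empty vector, −0.14 with wild-type ZEB1 and −0.20 with K80R, and −0.60 and −0.64 in TPM. Of 30 whose mean FPKM reached 1, wild type had 1 higher and 3 lower, and K80R had none higher and 3 lower, beside 11.1% and 13% lower over all genes. In TPM 18 of 33 were lower in wild type and 17 in K80R, with none higher, beside 37.7% and 35.9% lower over all genes. SHC1, an adaptor of EGFR, was the higher gene at 39.9, 63.5 and 56.2 FPKM. GRB2, the adaptor that recruits SOS to RAS, was at 45.6, 27.3 and 26.1 FPKM, and HRAS at 36.9, 23.5 and 18.8 FPKM. PTPN11, which encodes the phosphatase SHP2, stood at 56.8, 32.2 and 38.0 FPKM and passed the limit in wild type alone. NCK1, an adaptor to the actin machinery, was at 11.4, 8.58 and 6.93 FPKM and passed it in K80R alone. Whether these genes differ between the overexpression libraries rests on the direct comparison, in which none of GRB2, HRAS, PTPN11 and NCK1 passed 1.5-fold. IRS1, the docking protein of IGF1R, did so upwards, at 10.4 FPKM in K80R against 6.18, while PIK3CD, at 6.62 against 10.8, and the kinase gene FYN, at 7.93 against 12.4, did so downwards. That was 1 higher and 2 lower of 30, beside 4.42% and 5.18% of all genes. FYN only just passed, at 0.666 as FPKM + 1. The number lower was 1 of 30 by the sum of recovered reads, 1 of 33 without mitochondrial genes and 3 of 33 in TPM. Over all genes 4.42%, 7.51% and 8.57% were lower in these settings.

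Attenuators of receptor signalling included 30 genes whose mean FPKM reached 1. Wild type had 7 of them higher and 1 lower than empty vector (median 0.24), and K80R had 3 higher and 1 lower (median 0.23). All genes had 14.2% higher and 11.1% lower in wild type and 12.6% and 13% in K80R. In TPM 2 of 32 were higher and 6 lower in wild type (median −0.19), and 2 higher and 3 lower in K80R (median −0.18). All genes in TPM had 11.9% higher and 37.7% lower in wild type, and 12.6% and 35.9% in K80R. SH3KBP1, which links CBL to endocytosis of EGFR, was at 20, 42.6 and 34.9 FPKM. SPRED2, an inhibitor of RAF activation, stood at 8.05, 16.5 and 20 FPKM, while its relative SPRED1 was the lower gene at 17.3, 9.14 and 9.12 FPKM. LRIG3, a transmembrane regulator of receptor kinases, was at 1.34, 2.25 and 3.54 FPKM. ERRFI1, which binds and inhibits the EGFR kinase, had the highest level of the list, at 153, 236 and 159 FPKM. It was 1.54-fold higher as FPKM + 1 in wild type than with empty vector and 1.04-fold in K80R. CBLB, a ubiquitin ligase for EGFR and other receptors, was at 0.821, 2.35 and 1.7 FPKM, a ratio of FPKM + 1 of 1.84 and 1.48, and passed the filter only through the overexpression libraries. Between the overexpression libraries none of the 30 passed 1.5-fold in FPKM + 1, beside 4.42% higher and 5.18% lower over all genes. Without mitochondrial genes in the common sum 3 of 32 were higher in K80R, beside 18.1% of all genes.

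Several output genes of the ERK pathway were highest with wild-type ZEB1, and others, such as DUSP5 and CCND1, with empty vector. PHLDA1 was level between empty vector and wild type, at a ratio of 0.984 (0.961 to 1.01). FOS and ETV1 had their highest values with K80R, within counting error of empty vector. Their ratios of K80R to empty vector were 1.17 (0.967 to 1.42) and 1.14 (0.95 to 1.36). Of 12 whose mean FPKM reached 1, 5 were higher and none lower in wild type than with empty vector, with a median of −0.05, and 2 were higher and 1 lower in K80R, with a median of 0.08. The same measure gave 14.2% higher and 11.1% lower over all genes in wild type, and 12.6% and 13% in K80R. In TPM 3 of 13 were higher and 5 lower in wild type, with a median of −0.48, and none was higher and 4 were lower in K80R, with a median of −0.22. The TPM shares of all genes were 11.9% higher and 37.7% lower in wild type, and 12.6% and 35.9% in K80R. In K80R against wild type 1 was higher and 3 were lower, with a median of −0.27, beside 4.42% and 5.18% of all genes. The TPM counts of this pair were equal to these, beside 11.3% and 8.57% of all genes. EGR1 was at 1.18, 7.58 and 2.54 FPKM, FOSL1 at 56.9, 193 and 104 FPKM, and IER3 at 111, 245 and 115 FPKM, all highest with wild-type ZEB1. These 3 genes, which encode 2 transcription factors and a survival protein, also respond to signals other than growth factors. DUSP5, the phosphatase that inactivates ERK in the nucleus, was lower than empty vector in both overexpression libraries, at 270, 199 and 134 FPKM, and PHLDA1 stood at 114, 112 and 78.9 FPKM. FOS, the AP-1 subunit gene, was at 4.34, 2.98 and 5.08 FPKM, and was the gene higher in K80R than in wild type past 1.5-fold. CCND1, the cyclin of growth factor response, was at 235, 197 and 223 FPKM.

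**Figure D5:**
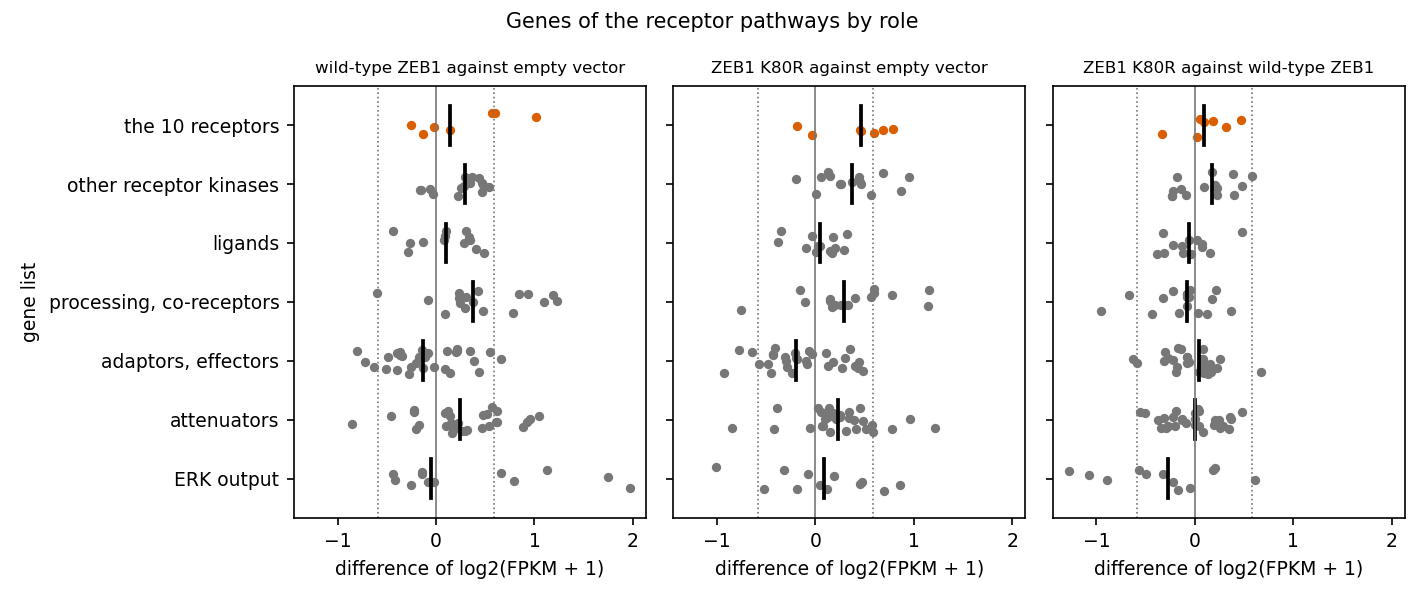
Difference of log2(FPKM + 1) of each gene whose mean FPKM reached 1 (points, spread vertically at random), by role, with black bars for list medians and dotted lines at 1.5-fold. The receptor median is 0.14, 0.46 and 0.09 in the 3 comparisons, that of the adaptors is −0.14 and −0.20 against empty vector, and that of the ERK output genes is −0.05, 0.08 and −0.27.

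Levels of PDGFRB were set beside markers of the cells that carry it, since bulk RNA does not tell apart fewer cells of a type and less RNA per cell. Of 16 fibroblast and pericyte genes, 5 reached a mean FPKM of 1, and their list summed to 62.8, 84.2 and 88.8 FPKM. MCAM, at 45.4, 59.2 and 67.1 FPKM, and CSPG4, at 9.06, 12.4 and 11.0 FPKM, made up most of it. CSPG4 had the order of PDGFRB over the libraries. So did the smooth muscle and pericyte genes ACTA2, at 3.87, 5.99 and 5.15 FPKM, and TAGLN, at 0.209, 0.999 and 0.594 FPKM. For ACTA2 the ratio of K80R to wild type, 0.859 (0.71 to 1.04), was within counting error. RGS5, of the same list, was level at 0.268, 0.266 and 0.297 FPKM. FBLN1 was lowest with K80R, at 0.225, 0.328 and 0.103 FPKM, and COL1A2 fell, at 0.559, 0.214 and 0.161 FPKM. TAGLN, RGS5, FBLN1 and COL1A2 had a mean FPKM below 1. PDPN, at 1.55, 3.75 and 3.69 FPKM, was at least 1.5-fold higher in both overexpression libraries. Its ratio of K80R to wild type, 0.982 (0.797 to 1.21), was within counting error. The fibroblast genes THY1, FAP, LUM and DPT had 0 reads in every library and COL3A1 at most 2, and COL1A1, at 1.70, 0.93 and 0.68 FPKM, ran against PDGFRB. Of 8 mast cell genes, which KIT would accompany, 5 had 0 reads, and the summed level was 1.4, 1.94 and 1.85 FPKM, nearly all of it from GATA2. Leukocyte and endothelial genes, 12 in all, summed to 0.401, 0.931 and 0.797 FPKM, and none reached a mean of 1. Neural crest and melanocyte genes, 10 in all, summed to 4.72, 4.91 and 5.19 FPKM, mostly DCT and NGFR, with SOX10, TYR and S100B at 0 reads. The part of other cells in the PDGFRB difference was not tested.

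PDGFRB had the widest spread of the 7 receptors, 1.02 on the log2(FPKM + 1) scale, against 0.79 for EGFR and 0.13 for ERBB2. The coding genes whose 2 differences from empty vector lay nearest to its own were NRBP1, at 10.8, 23.0 and 18.3 FPKM, CTH, at 1.96, 4.89 and 3.7 FPKM, and RWDD2A, at 0.958, 3.06 and 2.13 FPKM. Their distances on that scale were 0.0263, 0.032 and 0.0332, and 38 of 10371 coding genes lay within 0.1, over only 3 libraries.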

How the data were processed

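RNA of 3 cultures was sequenced from libraries made with a SMARTER mRNA kit, per the labels' protocols. Per the submitters' processing notes, hg38 and the tools DESeq2 1.20.0, featureCounts 1.5.0-p3 and CASAVA were used, with no roles stated. Aligner, strand setting and annotation are not given in the sources used here. Deposited by the authors was a table of FPKM with gene lengths and coordinates. All 58735 identifiers were found in GENCODE 29 (GRCh38), and the lengths of the 10 receptors equalled the union of their exons there. FPKM times length was a whole multiple of a step for 100.0% of values above 0 in each library (tolerance 0.05 reads), which gave 14764535, 14322537 and 13479517 reads for empty vector, wild type and K80R.

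With Python 3.11.15 and scipy 1.17.1, differences were taken as log2(FPKM + 1), genes whose mean FPKM reached 1 were counted past a ratio of 1.5, and exact conditional (Clopper-Pearson) 95% intervals of ratios were computed, which cover counting error only. Reads that are PCR copies of 1 molecule would not be independent. Recovery of reads and intervals was tested on simulated data. Lists of up to 48 genes were compared by counts and medians. Symbols on more than 1 identifier kept the protein-coding one with more reads. TAGLN, RGS5, FBLN1, COL1A2, ETV1 and the colon genes were named after their values were seen. Named genes were the receptors and, per list and comparison, up to 4 genes with the largest difference and the gene with the highest level. Ligands and markers at 0 reads, PDGFB and PDGFC, and neighbours with shared exons were named after their values were seen. Members and lists were chosen with earlier results of these data known. Alternatives were another pseudocount, filters, ratio and scalings.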

Additional observations from a re-analysis of the deposited data

How the results depend on the processing

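With 1 library per group neither replicates nor cultures could be left out. No paired analysis was possible because each group had 1 library. Receptor counts past 1.5-fold against empty vector, 2 higher in wild type and 3 in K80R, changed as follows. In TPM wild type had 1 higher and 2 lower, beside 11.9% and 37.7% of all genes, and K80R 1 higher and 1 lower, beside 12.6% and 35.9%. Wild type and K80R had 1 and 4 higher without mitochondrial genes in the common sum, 1 and 2 when scaled by the sum of recovered reads (an alternative chosen after seeing the data), 1 and 2 with a filter of 5, 1 and 0 at a ratio of 2, and 3 and 3 with a pseudocount of 0.1. With a median ratio or a filter of 0.1 they had 2 and 3. K80R against wild type had 1 higher, MET, without mitochondrial genes, beside 18.1% of all genes. Of 150 values of single receptors under alternatives, 97 stayed within the counting interval of the value reported, 53 moved, and no difference past 1.5-fold reversed. The 97 include values that could not move, those of PDGFRA and those of KIT in wild type against empty vector, which rest on 0 reads. Smaller differences, such as that of IGF1R with wild-type ZEB1, could change sign without being counted as reversed.

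Counts over all genes moved as follows, in part because rescaled values let more genes pass the filter (17153 in TPM, 18336 without mitochondrial genes, 12638 by the sum of reads, 20976 and 7029 with filters of 0.1 and 5). For wild type against empty vector, 2044 were higher and 6471 lower in TPM, 3756 higher and 3614 lower without mitochondrial genes, 2118 lower by the sum of reads, 2786 higher with a filter of 0.1, 980 higher and 707 lower with a filter of 5, and 690 and 477 at a ratio of 2. For K80R against empty vector, 2166 were higher and 6166 lower in TPM, 4788 higher and 2797 lower without mitochondrial genes, 2965 higher with a filter of 0.1, 750 higher and 975 lower with a filter of 5, and 620 and 561 at a ratio of 2. For K80R against wild type, 962 higher and 1010 lower with a pseudocount of 0.1, 1934 and 1470 in TPM, 3319 and 1377 without mitochondrial genes, 1390 and 1127 with a filter of 0.1, 152 and 344 with a filter of 5, and 207 and 144 at a ratio of 2. The cause was not tested beyond the scaling shifts. Depth limits ERBB3, KIT and PDGFRA, with at most 19 reads in a library.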
